A study of Homo sapiens with 7 samples.

Results

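Most ZNF genes encode C2H2 zinc finger proteins, and those outside chromosome 19 were taken here as the protein-coding genes of GENCODE v44 (hg38) on the other autosomes whose symbol begins with ZNF and a number. There were 254 such genes among 17635 protein-coding genes on the same autosomes. Membership rests on symbol and chromosome alone, and in 12 of the 254, such as ZNF330, ZNF365 and the antisense model ZNF593OS, no finger was found by the sequence pattern used. The genome held 515 ZNF genes in all, with 249 on chromosome 19 and 12 on the X and Y chromosomes. Genes with another ZNF start within 200 kb were called clustered, which gave 121 genes in 32 clusters, and the other 133 were called lone. Near this limit, ZNF629 and ZNF721 were the clustered genes farthest from their nearest neighbor, at 163 kb and 161 kb, and the closest lone genes were ZNF512 and ZNF513, which started 202 kb apart.

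The cells were HCT116, a colorectal carcinoma line with a doxycycline-inducible shRNA against UHRF1, kept for 14 days without doxycycline, so that the hairpin was not induced in any group. Clone 3 and Clone 6 are each 1 clonal line. Clone 3 had 2 samples for H3K9me3, 2 for H3K27me3 and 1 of input DNA, while Clone 6 had 2 for H3K27me3, and H3K9me3 samples from Clone 6, not used here, are represented in the domains shared between clones. The data are 5 sets of broad domains, 3 for a clone and a mark and 2 shared between clones. Each set lists domains found in common between replicates or clones, so a gene in a domain of 1 replicate alone counts as outside. Single replicates are not separate in the sets, so no replicate error could be given and no test was run. The study set a minimum number of read pairs per library, but the sets hold no counts, so the depth behind a domain cannot be read from them. The identity of the line cannot be checked from domain positions.

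Most ZNF genes arose by repeated duplication, and many encode a KRAB domain ahead of an array of zinc fingers. The fingers bind DNA, often in transposable elements, and the KRAB domain recruits TRIM28, which brings the methyltransferase SETDB1 to lay down H3K9me3. The long 3′ exons that encode the fingers are themselves known to carry H3K9me3 in many cell types. H3K27me3 is laid down by PRC2, whose usual targets are developmental genes.

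The sequence that the genes share most is the linker between neighboring fingers. The 15-base word most often found in frame in their coding sequences was ACTGGAGAGAAACCC, searched on the coding strand only. At least 1 copy was present in 55 of the 254 genes (21.7%) and in 63 of all 17635 genes (0.357%), which include the 55. The word was picked for its frequency in the ZNF genes, so its higher share in them is partly built in. The windows below (30 bases, hg38, coding strand 5′ to 3′, the word in capitals) come from 3 genes that start inside a Clone 3 H3K9me3 domain, 2 that start just outside one and 1 that lies farther away.
ZNF10 (chr12:133156353-133156382, plus strand): gacacatACTGGAGAGAAACCCtatgaatg
ZNF679 (chr7:64266329-64266358, plus strand): aattcatACTGGAGAGAAACCCtacagatg
ZNF141 (chr4:373346-373375, plus strand): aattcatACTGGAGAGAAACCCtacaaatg
ZNF721 (chr4:443715-443744, minus strand): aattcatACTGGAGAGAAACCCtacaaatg
ZNF267 (chr16:31915869-31915898, plus strand): aattcatACTGGAGAGAAACCCtataaatg
ZNF195 (chr11:3359353-3359382, minus strand): aattcatACTGGAGAGAAACCCtacaagtg

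The bases before some starts are shown next, for genes that differ in CpG content. ZNF891 and ZNF10 on chromosome 12 start head to head with 300 bases between them, and both starts lie in 1 domain. The bases between them (chr12:133130275-133130574, plus strand, each CG in capitals here and in the sequences that follow) hold 44 CpGs.
ZNF891 to ZNF10: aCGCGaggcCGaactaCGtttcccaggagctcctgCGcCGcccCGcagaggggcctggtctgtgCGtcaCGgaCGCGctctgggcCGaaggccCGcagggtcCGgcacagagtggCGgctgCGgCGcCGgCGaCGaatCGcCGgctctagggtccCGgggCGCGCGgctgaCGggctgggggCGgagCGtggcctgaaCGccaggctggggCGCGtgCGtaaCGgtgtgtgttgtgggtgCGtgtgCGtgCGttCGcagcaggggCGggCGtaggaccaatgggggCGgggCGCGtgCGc

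The 100 bases upstream of a start show the range. ZNF479 and ZNF679 lie inside domains and hold no CpG there, ZNF32 starts inside a domain 119 bp from its edge, and ZNF12 and ZNF184 start about 1 kb outside a domain that covers their bodies.
ZNF479 (chr7:57139865-57139964, minus strand): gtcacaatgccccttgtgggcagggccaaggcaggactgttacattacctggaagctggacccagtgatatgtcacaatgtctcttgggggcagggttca
ZNF679 (chr7:64228374-64228473, plus strand): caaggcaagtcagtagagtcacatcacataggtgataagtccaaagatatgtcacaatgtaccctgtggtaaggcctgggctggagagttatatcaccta
ZNF32 (chr10:43648882-43648981, minus strand): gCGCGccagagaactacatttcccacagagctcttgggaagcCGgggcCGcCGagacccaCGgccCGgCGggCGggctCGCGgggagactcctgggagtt
ZNF12 (chr7:6706948-6707047, minus strand): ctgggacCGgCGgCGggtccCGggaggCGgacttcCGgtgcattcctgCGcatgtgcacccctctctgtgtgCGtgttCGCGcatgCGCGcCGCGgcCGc
ZNF184 (chr6:27473119-27473218, minus strand): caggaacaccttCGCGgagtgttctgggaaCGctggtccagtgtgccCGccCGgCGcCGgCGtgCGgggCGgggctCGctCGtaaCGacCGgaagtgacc
At least 1 CpG lay in this window in 242 of the 254 ZNF genes (95.3%) and in 89.4% of all genes.

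H3K9me3 domains held the starts of 39 of the 254 genes in Clone 3 (15.4%), against 2.54% of all protein-coding genes on these autosomes. With only the upper 50% of domains by score the count was 25 (9.84%, against 2.3%). In the set shared between clones the count was 38 (14.96%, against 2.42%). ZNF32 was the gene that differed, and its start lay 18.9 kb from the nearest shared domain. H3K27me3 domains held 3 genes in Clone 3 (1.18%, against 6.73%), 6 in Clone 6 (2.36%, against 8.19%) and 3 in the shared set (1.18%, against 5.51%). No gene started in domains of both marks, 45 started in a domain of at least 1 set and 209 in none. Neighboring genes share domains, so these counts are not independent observations. With each cluster or lone gene counted once, and a cluster counted as inside when at least 50% of its genes were, 15 of 165 units (9.09%) lay in Clone 3 H3K9me3 domains. All genes were not counted in such units, so the 2.54% is not a like background for this share.

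Clustered genes made up most of the H3K9me3 group. Of the 121 clustered genes 33 started in a Clone 3 H3K9me3 domain (27.3%), and of the 133 lone genes 6 did (4.51%), against 2.54% of all genes. The lone share is thus much closer to that of all genes. In the plot of distances the curve for clustered genes lies above that for lone genes over most of its range, and among genes that started outside a domain the median distance was 575 kb for clustered and 3014 kb for lone genes. In the H3K27me3 sets all 6 genes were lone, and no clustered gene started in any of their domains. The median distance to the nearest Clone 3 H3K27me3 domain was 804 kb for clustered genes and 781 kb for lone genes. In or within 100 kb of such a domain lay 7 clustered (5.79%) and 19 lone genes (14.3%) in Clone 3, against 16.6% of all genes. In Clone 6 they were 10 clustered (8.26%) and 27 lone genes (20.3%), against 21.9% of all genes.

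**Figure D1:**
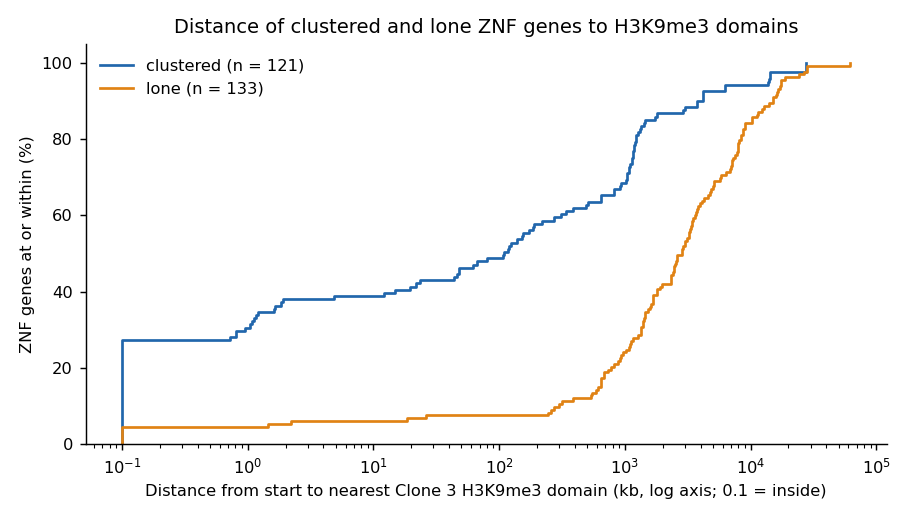
Cumulative share of clustered (n = 121) and lone (n = 133) ZNF genes, in percent, by the distance in kb from their start to the nearest Clone 3 H3K9me3 domain, on a log axis where 0.1 stands for inside. The clustered curve starts at 27.3% and the lone curve at 4.51%.

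The 39 genes lay on 12 of the 19 chromosomes that carry ZNF genes (there were none on chromosomes 13 and 21). Chromosome 12 had the highest share, with 7 of its 13 genes inside (53.8%), all in 1 cluster, against 1.45% of all genes on that chromosome. Chromosome 7, with 35 genes the richest, also had 7 inside (20.0%, against 1.61% of all its genes). Chromosome 4 had 3 of 8 (37.5%, against 2.25%) and chromosome 2 had 3 of 9 (33.3%, against 1.60%). Chromosome 5 had 4 of 12 (33.3%), but there the share of all genes was higher too, at 7.71%. Of the 30 genes on chromosome 16, the second richest, 1 was inside (3.33%, against 1.28%). On chromosomes 6, 11, 14, 15, 18, 20 and 22, no ZNF gene started in an H3K9me3 domain. Among all genes the shares on these chromosomes ran from 0.447% on chromosome 22 to 8.65% on chromosome 18. Chromosome 20 had 2 of 9 genes in H3K27me3 domains (22.2%, against 12.5% of all its genes in Clone 3 and 16.3% in Clone 6). Chromosome 18 had 1 of 9 in Clone 3 (11.1%, against 9.40%) and 2 in Clone 6 (22.2%, against 12.8%). In Clone 6 chromosome 16 had 1 of 30 (3.33%, against 6.18%) and chromosome 17 had 1 of 12 (8.33%, against 6.32%). The other chromosomes had none in these domains.

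**Figure D2:**
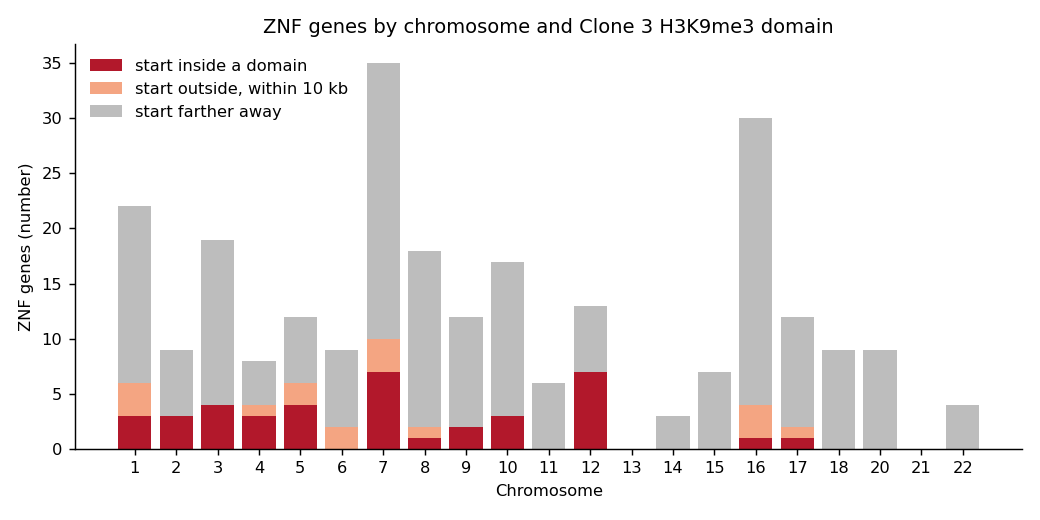
Number of ZNF genes on each chromosome, divided by whether the start lay inside a Clone 3 H3K9me3 domain, outside but within 10 kb, or farther away. Chromosomes 7 and 12 each have 7 genes inside, of 35 and 13 genes.

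The clusters divided into 3 with every gene inside, 9 split and 20 with none inside. The cluster at the end of the long arm of chromosome 12 was the largest of the first kind. Its 7 genes, ZNF605, ZNF26, ZNF84, ZNF140, ZNF891, ZNF10 and ZNF268, started in a single 410 kb domain (chr12:132839001-133249000), and ZNF268 was 93.9 kb from the chromosome end. ZNF10 is known as the source of the KRAB domain used in many engineered repressors. That domain also held the starts of CHFR, a mitotic checkpoint ubiquitin ligase, and 2 other genes. On chromosome 7 ZNF722, ZNF727, ZNF735, ZNF679 and ZNF736 shared a 774 kb domain (chr7:63788001-64562000) with no other protein-coding start. On chromosome 2 ZNF2, ZNF514 and ZNF892 lay in a 104 kb domain (chr2:95124001-95228000), in which ZNF2 and ZNF514 started 0.236 kb apart.

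Split clusters held 44 genes, 18 of them inside. On chromosome 4 a 430 kb domain (chr4:68001-498000) held the starts of ZNF718, ZNF732 and ZNF141, and its 2 edges fell within the first and last genes of the cluster. ZNF595 started 14.7 kb before the left edge with 57.9% of the gene covered, and ZNF721 started 1.16 kb beyond the right edge with 98.4% covered. On chromosome 5 ZNF454, ZNF879 and ZNF354C lay in a 241 kb domain (chr5:178861001-179102000) together with ZFP2 and GRM6, a glutamate receptor of the retina. ZNF354B started 1.05 kb before it, and ZNF354A started 1.66 kb from the next domain, at the far side of a 132 kb gap. On chromosome 1 ZNF695, ZNF669 and ZNF124 each lay in a separate domain, of 117 kb, 25 kb and 78 kb. ZNF670 and the readthrough model ZNF670-ZNF695, which share a start, started in the 13 kb gap between the first and the next of these, and ZNF496, the last gene of the cluster, was 124 kb away.

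**Figure D3:**
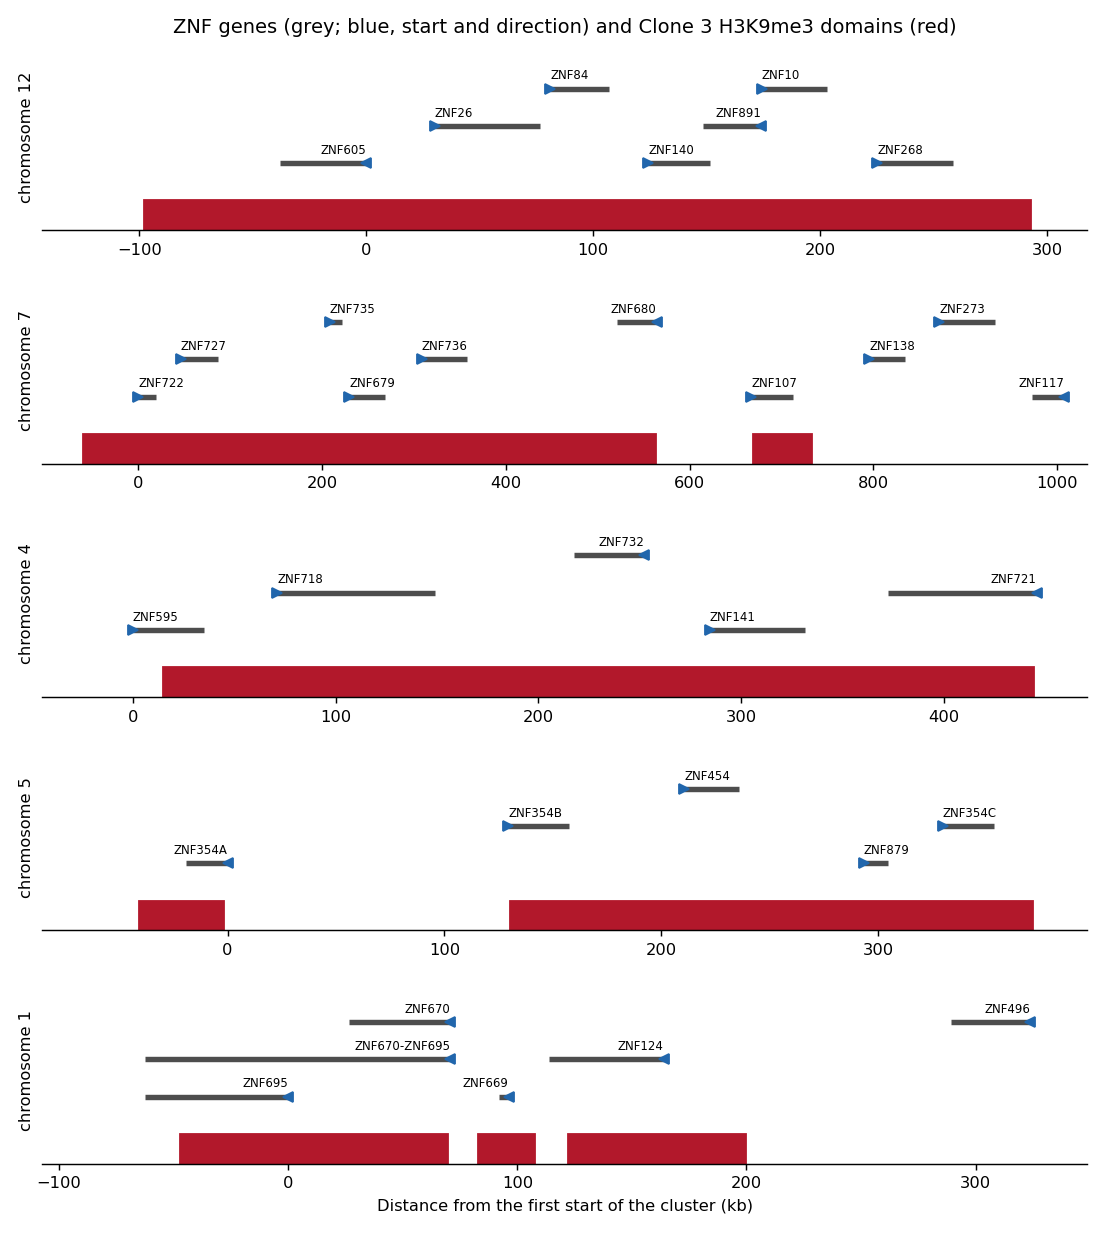
ZNF genes (grey bars, blue arrowheads at the start pointing along the gene) and Clone 3 H3K9me3 domains (red, cut 60 kb beyond the outermost genes) on chromosomes 12, 7, 4, 5 and 1, by distance in kb from the first start of the cluster. All 7 starts on chromosome 12 lie inside 1 domain, and ZNF721, ZNF354A, ZNF354B, ZNF670, ZNF680 and ZNF107 start within 2 kb of a domain edge with their bodies mostly inside.

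The other split clusters each had 1 to 3 genes inside. On chromosome 10 ZNF239, ZNF485 and ZNF32 shared a 146 kb domain, which ended 119 bp beyond the start of ZNF32, and ZNF487 lay 66.2 kb away. On chromosome 3 ZNF502 and ZNF501 shared a 66 kb domain. The other 5 genes of that cluster lay outside, with ZNF35 at 46.3 kb, ZNF197 at 110 kb, ZNF660 at 117 kb, ZNF852 at 184 kb and ZNF445, known as a keeper of imprinted DNA methylation, at 217 kb. On chromosome 16 ZNF75A lay inside a 46 kb domain, ZNF263 started 0.718 kb before it, ZNF174 started in a 3 kb gap between domains, and ZNF205, ZNF213, ZNF200 and ZNF597 started 19.5 kb to 171 kb away. ZNF510 on chromosome 9 was inside and its neighbor ZNF782 started 23.6 kb outside with 60.2% of the gene covered. ZNF287 on chromosome 17 was inside, and its neighbor ZNF624 started 1.86 kb outside. On chromosome 8 ZNF16 was inside at 188 kb from the chromosome end, ZNF250 started 4.83 kb from the same domain, and ZNF251, ZNF34, ZNF517 and ZNF7 were 79.5 kb to 151 kb away.

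The clusters with the most genes had none inside. The largest, on chromosome 16, had 9 genes over 409 kb (ZNF48, ZNF771, ZNF768, ZNF747, ZNF764, ZNF688, ZNF785, ZNF689 and ZNF629), and 14 other protein-coding genes started within its span. Its genes lay 930 kb (ZNF629) to 1339 kb (ZNF48) from the nearest domain. The second, on chromosome 7, had 8 genes over 407 kb (ZNF786, ZNF425, ZNF398, ZNF282, ZNF212, ZNF783, ZNF777 and ZNF746, a repressor of PPARGC1A) and no other protein-coding start. They lay 1045 kb (ZNF786) to 1452 kb (ZNF746) from the nearest domain, and 7 of them carry the KRAB pattern described below. By size of cluster, the share of genes inside was 7.14% (2 of 28 genes) in pairs, 26.1% (6 of 23) in clusters of 3 or 4 and 35.7% (25 of 70) in clusters of 5 or more. By any base of the gene the shares were closer, at 25% (7 of 28), 30.4% (7 of 23) and 50.0% (35 of 70). The share of all genes by any base was 3.04%. In 3 of the 14 pairs a gene was matched only with its own readthrough or antisense model (ZNF593 with ZNF593OS, ZNF511 with ZNF511-PRAP1 and ZNF286A with ZNF286A-TBC1D26). Without the 4 models of this kind 29 clusters remained, and the share in pairs was 9.09% (2 of 22). Of the 32 other protein-coding genes that started within cluster spans, 5 lay in H3K9me3 domains (15.6%, against 2.54% of all genes). They were 1 of 1 in clusters with every ZNF gene inside, 4 of 13 in split clusters and 0 of 18 in clusters with none inside. These neighbors were counted in the same domains that sorted the clusters, so the split by class follows largely from the sorting.

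**Figure D4:**
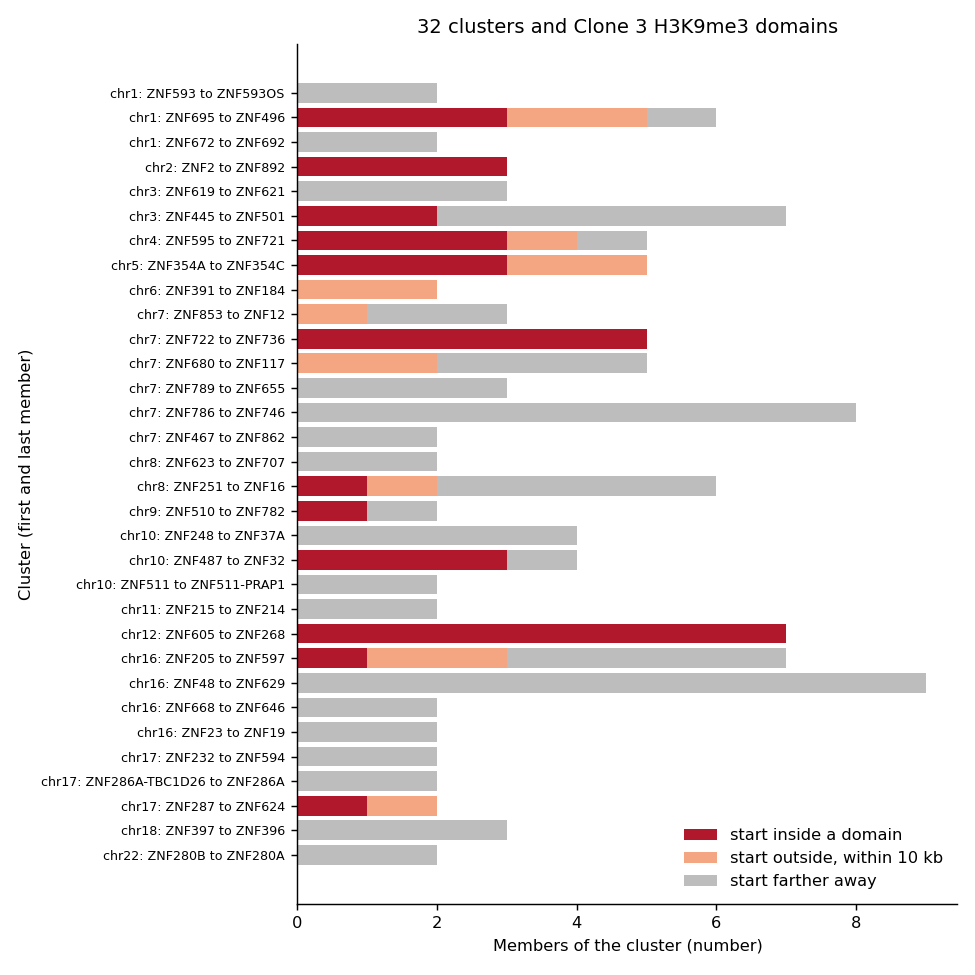
Each bar is 1 of the 32 clusters, named by chromosome and by its first and last gene, and its length is the number of ZNF genes, divided by the place of their starts relative to Clone 3 H3K9me3 domains. The clusters of 9 genes on chromosome 16 and 8 genes on chromosome 7 are grey throughout, and the cluster of 7 on chromosome 12 is red throughout.

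The 39 starts lay in 19 of the 567 Clone 3 H3K9me3 domains. Those 19 ranged from 25 kb to 5560 kb with a median of 122 kb, and the median of all domains was 140 kb. They held 11 other protein-coding starts, and 13 of them held none. For these 39 genes, depth was measured to the upstream edge only. The median distance from a start to the domain edge upstream of it was 119 kb, ZNF32 was the only gene within 10 kb of that edge, and 35 of the 39 genes were covered whole. The other edge can be nearer, as for ZNF717, which started 5438 kb from the upstream edge of a 5560 kb domain.

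The 6 lone genes inside were ZNF385D, ZNF717, ZNF300, ZNF479, ZNF716 and ZNF883. ZNF385D, a 961 kb gene of a family whose fingers resemble those of RNA-binding proteins, lay wholly in a 2147 kb domain on chromosome 3. ZNF717 was near one end of the longest domain of the group, 5560 kb, which also held ROBO1 and ROBO2, receptors for SLIT axon guidance cues, and FRG2C. ZNF479 and ZNF716 on chromosome 7 shared a 518 kb domain but started 310 kb apart, which makes them lone by the 200 kb rule. ZNF300 lay in a 102 kb domain on chromosome 5, and ZNF883 shared an 88 kb domain on chromosome 9 with ZFP37, a zinc finger gene of another name.

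A further 16 genes started outside a Clone 3 H3K9me3 domain but within 10 kb of one (6.30%), against 0.267% of all genes. They were 16 of the 47 protein-coding genes in that position. Of these 16, 14 were clustered and 14 lay within 2 kb, where all genes together numbered 22. In 15 of the 16 domains covered most of the gene, from 78.1% to 98.7% of its length, while the start lay 0.718 kb to 2.19 kb outside. The 15 were ZNF678, ZNF670, ZNF670-ZNF695, ZNF721, ZNF354A, ZNF354B, ZNF391, ZNF184, ZNF12, ZNF680, ZNF107, ZNF263, ZNF174, ZNF267 and ZNF624. ZNF391 started in a 7 kb gap between domains. ZNF250 was the only one of the 16 with no base covered. Domain edges fall on whole kb, so a distance of about 1 kb is close to the resolution of the sets. With only domains of at least 100 kb kept, 7 genes in place of 16 started just outside.

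Counts by gene body were higher than counts by start. In Clone 3 H3K9me3 domains 58 genes had at least 1 base (22.8%, against 3.04% of all genes) and 52 had their 3′ end (20.5%, against 2.46%). Genes with the start outside and part of the body inside numbered 19 (7.48%, against 0.499%). Besides the 15 above these were ZNF595, ZNF782, ZNF232 and ZNF521, whose starts were 12.2 kb to 26.2 kb from the domain. Counted by any base, clusters on chromosomes 6 (ZNF391 and ZNF184), 7 (ZNF12 in one, ZNF680 and ZNF107 in another) and 17 (ZNF232) also reached a domain, so that 16 of the 32 clusters did so.

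The KRAB domain, found by a pattern in the coding sequence and so only approximately, was more frequent among the genes inside. Of the 110 genes with the pattern 30 started in a Clone 3 H3K9me3 domain (27.3%), and of the 144 without it 9 did (6.25%), against 2.54% of all genes. The order was the same within clustered genes (26 of 77, 33.8%, and 7 of 44, 15.9%) and within lone genes (4 of 33, 12.1%, and 2 of 100, 2.00%). Among genes with 0 to 4 zinc fingers, 1 of 64 was inside (ZNF385D, 1.56%), while 17 of 84 genes with 5 to 9 fingers (20.2%) and 21 of 106 with 10 or more (19.8%) were. The shares of genes with 0 to 4 fingers and of lone genes without the KRAB pattern were near the 2.54% of all genes.

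The linker word divided the genes in the same direction. Of the 55 genes with at least 1 copy 23 lay inside (41.8%), and of the 199 without it 16 did (8.04%). The share of all genes inside was 2.54%. Among clustered genes with the KRAB pattern the counts were 19 of 34 (55.9%) with the word and 7 of 43 (16.3%) without it. Among lone genes they were 2 of 11 (18.2%) and 4 of 122 (3.28%), the latter near the 2.54% of all genes. All 55 holders had at least 5 fingers, and among genes with at least 10 fingers the difference by start was smaller, with 10 of 35 (28.6%) and 11 of 71 (15.5%) inside. By any base of the gene these were 20 of 35 (57.1%) and 14 of 71 (19.7%), against 3.04% of all genes. The word was found in 23 of the 39 genes inside (58.97%), in 10 of the 16 just outside (62.5%) and in 22 of the 199 farther away (11.1%). Genes copied from each other share both the word and their neighborhood, so these genes are not independent, and the part of the word itself was not tested. Copies of one coding sequence can also affect where reads align. The share of 50-base words of a gene's coding sequence that recur elsewhere in hg38 was over 10% in 7 of the 39 genes inside, 3 of the 16 just outside and 27 of all 254, and was highest inside for ZNF479, at 70.6%. Its part in the calls was not tested.

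**Figure D5:**
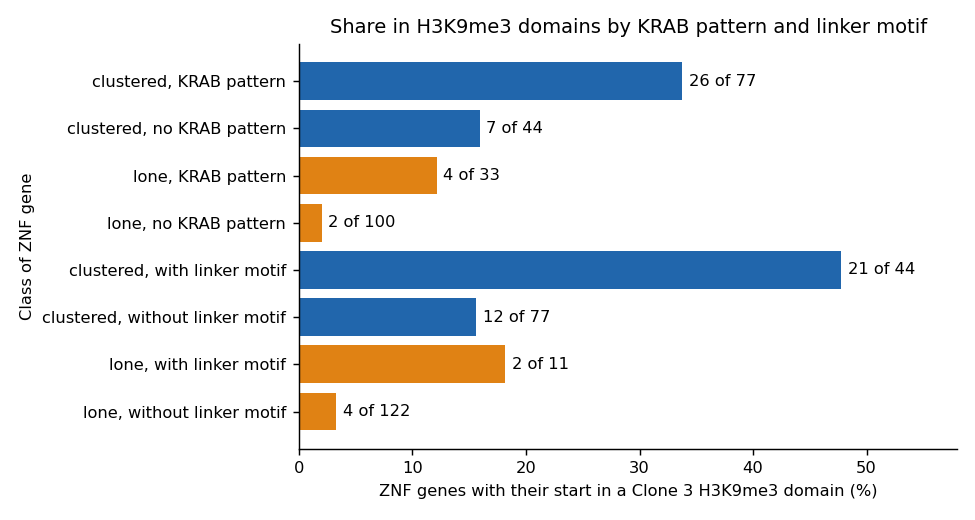
Percentage of ZNF genes with their start in a Clone 3 H3K9me3 domain, by KRAB pattern (upper 4 bars) and by linker word, labelled linker motif (lower 4 bars), within clustered (blue) and lone (orange) genes, with the counts beside each bar. Clustered genes with the word have the longest bar, 21 of 44.

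The CpG content of the starts was measured as the number of CG pairs. In the 1 kb around the start, the median was 63 CpGs for the 39 genes inside, 66 for the 16 just outside and 67 for the 199 farther away, and 59 for all genes. ZNF84 had 110, ZNF891, ZNF10 and ZNF32 had 101, ZNF679 had 6 and ZNF479 had 4. By class, 6 of 33 genes with under 30 CpGs were inside (18.2%), 10 of 66 with 30 to 59 (15.2%) and 23 of 155 with 60 or more (14.8%). Among all protein-coding genes the shares in these classes were 4.06%, 2.60% and 1.60%.

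The 6 genes in H3K27me3 domains were ZNF521, ZNF334 and ZNF831 in both clones and ZNF423, ZNF830 and ZNF516 in Clone 6 alone. ZNF521 and ZNF423 encode related proteins that act as cofactors in neural and blood cell development, each with 27 fingers by the pattern used. ZNF521 lay in a 758 kb domain in Clone 3 and a 140 kb domain in Clone 6 with no other protein-coding start, while 40.7% of its body lay in a Clone 3 H3K9me3 domain that began 26.2 kb from its start. ZNF831 lay in domains of 868 kb and 888 kb on chromosome 20, and ZNF334 in domains of 144 kb and 270 kb on the same chromosome. ZNF423 lay in an 892 kb Clone 6 domain (chr16:49026001-49918000) and was 243 kb from the nearest Clone 3 domain. ZNF516, a factor of brown fat gene expression, lay in a 102 kb Clone 6 domain and was 84.8 kb from one in Clone 3. ZNF830, linked to RNA splicing, started near the end of a 650 kb Clone 6 domain and 1.54 kb outside a Clone 3 domain, a distance close to the 1 kb steps of the edges. ZNF334 was the 1 gene of the 6 with the KRAB pattern.

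Other zinc finger genes and the enzymes of both marks were counted in the same way. Of 38 ZFP, ZSCAN and ZKSCAN genes on these autosomes 5 started in a Clone 3 H3K9me3 domain (13.2%, against 2.54% of all genes), namely ZFP69B, ZFP69, ZFP2, ZFP37 and ZFP3, and 8 had at least 1 base in one (21.1%, against 3.04%). None lay in an H3K27me3 domain, where 6.73% of all genes in Clone 3 and 8.19% in Clone 6 lay. Of 18 genes of the H3K9me3 pathway on these autosomes, such as the methyltransferase SETDB1, and of 19 genes of PRC2 and its partners, none started in a domain of any of the 5 sets. The shares of all genes in these sets were 2.42% to 8.19%, so a count of 0 in lists this short is close to the background.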

How the data were processed

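H3K9me3 and H3K27me3 were measured by ChIP-seq in 6 samples of HCT116 shUHRF1 clones, with 1 input sample. The authors trimmed reads with TrimGalore (Trim Galore 0.5.0 in the submitters' processing notes), aligned them to hg38 with bowtie2 (2.3.5), removed duplicates by samblaster, and ran Enriched Domain Detector with its defaults to find domains. The deposited sets give domain positions in bp (other unit) and, for each clone set, 2 domain scores of unnamed scale, and the score of a domain was used only to rank domains. The authors kept domains consistent between replicates, or between clones, and gave no separate calls per replicate in the sets used here, so depth per sample and the precision it gives cannot be read from them. The methods state a minimum number of read pairs per library.

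A gene was counted as inside when its 5′ end in GENCODE v44 lay in a domain. Clusters are chains of starts at most 200 kb apart. Fingers, the KRAB pattern and the linker word were searched in the canonical coding sequence, and words of 50 bases were counted in chromosomes 1 to 22, X and Y of hg38. The KRAB pattern was widened once because known KRAB genes were missed. The counting functions were tested on simulated data. Python 3.11.15, numpy 2.4.6 and pandas 2.3.3 were used. All 17635 genes gave the background. ZNF genes were taken by symbol and chromosome, without regard to domains. The family and the lists were picked for study with earlier results of these data known. Of the members, the text names by rule every gene in a domain, within 10 kb of a Clone 3 H3K9me3 domain, or in a split cluster or one of the largest clusters. Protein sequences were not used here. Alternatives changed the position of a gene, the domain length, width and score, the cluster distance and the genes counted.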

Additional observations from a re-analysis of the deposited data

How the results depend on the processing

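Of 80 values computed again under other settings, 70 stayed within the 95% Wilson interval of the reported share or within 1.5 times the reported count. The Wilson interval served only as this yardstick, since genes in clusters are not independent. It is wide for the small H3K27me3 counts, which moved within it. The count in Clone 3 was 3 by start and 5 by any base (1.97%, against 9.07% of all genes). It was 5 with domains widened by 10 kb (1.97%, against 8.44%) and 1 without chromosome 20 (0.408%). In Clone 6 it was 6 by start and 11 with widened domains (4.33%, against 10.5% of all genes). It was 4 without chromosome 18 or without chromosome 20, and 3 by 3′ end (1.18%, against 7.83%). In the shared set it was 3 by start and 1 without chromosome 20. It was 5 with widened domains (1.97%, against 6.83%) and 2 by 3′ end (0.787%, against 5.6%). The others were as follows. For Clone 3 H3K9me3 the share of genes inside was 15.4% by start, 20.5% by 3′ end, 22.8% by any base of the gene, 21.7% with domains widened by 10 kb (2.81% of all genes), 9.84% with only the upper 50% of domains by their lower score (2.3% of all genes), and 9.09% with each cluster or lone gene counted once. In the shared H3K9me3 set these were 14.96% by start, 22.0% by any base (2.86% of all genes), 20.5% with widened domains (2.67%) and 9.09% counted once. The share of clustered genes was 40.5% by any base. The number of genes just outside a domain was 7 in place of 16 when only domains of at least 100 kb were kept, since fewer domains then remain. The settings for the genes just outside, for the count by any base, for the length of the linker word (12 or 18 bases) and without 4 readthrough and antisense models (250 genes left) were chosen after seeing the data. With a word of 12 bases 37.8% of its 74 holders were inside, and with 18 bases 43.9% of 41. No paired analysis was possible because the deposited sets hold no separate replicates, and no replicate could be left out for the same reason.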
